A study of Arabidopsis thaliana with 6 samples.

Results

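The transcripts described here are 5 genes of the plant response to low temperature: COR15A, COR15B, COR47, XERO2 (called LTI30 in RefSeq) and ZAT10 (called STZ in RefSeq). They were taken as the probe sets whose only listed gene is 1 of these 5, matched by gene identifier and RefSeq synonym. Each gene had 1 such probe set, so the group holds 5 of the 13350 genes, and of the 13513 probe sets, for which a probe set pairs with a single gene. In all, 22746 probe sets were tested. COR15B (AT2G42530) and COR15A (AT2G42540) lie next to each other on chromosome 2. COR47 (AT1G20440) and ZAT10 (AT1G27730) lie on chromosome 1, and XERO2 (AT3G50970) lies on chromosome 3.

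Transcript levels came from 6 single-colour Affymetrix arrays of Arabidopsis thaliana, with 3 arrays of sto2 null mutant plants and 3 of wild-type Col-0 plants. All plants were 3 weeks old, were raised in soil with 16 h of light at 22 °C and 8 h of darkness at 18 °C, and received no cold or other treatment. RNA came from expanding rosette leaves, numbers 3 to 6. The design text calls the 3 samples of each genotype biological replicates and gives the search for targets downstream of the STO2 protein as the aim. The labels give neither the locus of STO2 nor the number of plants in a sample, and the null mutant is a single allele, not named further.

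In Arabidopsis, falling temperature induces the CBF (DREB1) transcription factors, which bind a CCGAC-containing element in the promoters of COR genes and raise their transcription within hours. The products protect the cell during freezing and the water loss that comes with it. COR15A and COR15B are small chloroplast proteins that stabilise membranes, while COR47 and XERO2 are dehydrins, flexible hydrophilic proteins of the late embryogenesis abundant (LEA) class. ZAT10 stands apart from these as a zinc finger repressor of transcription that is itself induced rapidly by cold, salt, drought and strong light. All of these transcripts are also present at some level in leaves that have not been chilled.

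All 5 genes had a lower mean signal in sto2 leaves, as did 52.7% of all probe sets, but none of the differences passed the test over the whole array. COR47 had the largest difference, with sto2 leaves at 48.5% of the wild-type mean, and COR15B followed at 65.6%. On COR47, COR15B and XERO2 every sto2 array read below every wild-type array, whereas the groups overlapped on COR15A and ZAT10. The test was limma on log2(signal + 16) with Benjamini-Hochberg adjustment over 22746 probe sets, and a transcript is called when its adjusted p is under 0.05. By that rule 29 probe sets, or 0.127%, were called, 0.0572% higher and 0.0703% lower in sto2, and 0 of the 5 genes were among them. At an unadjusted p under 0.05 the limma fit picked COR47 and COR15B, 2 of the 5 genes, beside 14.1% of all probe sets in either direction and 7.46% of all probe sets in the lower direction. Separate groups with sto2 lower, found for 3 of the 5 genes, occurred on 10.2% of all probe sets and on 12.8% of the 10041 with a mean signal of at least 50. The median log2 difference of the 5 genes was -0.48, beside -0.0081 over all probe sets. In leaf RNA, fewer cells that hold a transcript and less transcript per cell cannot be told apart.

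Among the chloroplast proteins, COR15B read 640.9, 480.3 and 550.7 signal units in sto2 replicates 1, 2 and 3, against 813.3, 909.7 and 827.4 in wild type. The 3 sto2 arrays all lay below the lowest wild-type array, and the wild-type values were close to each other. The means were 557 ± 80.5 in sto2 and 850 ± 52.1 in wild type (SD, n = 3 arrays each). On the log2(signal + 16) scale, which understates the change of dim transcripts, the difference was -0.60 ± 0.12 (SE), with a 95% interval from -0.88 to -0.33 and a limma adjusted p of 0.115. COR15B ranked 279th of 22746 by p-value. It passed in a single alternative, where the dimmest 50% of probe sets were left out (adjusted p = 0.0439), and there 2% of the 11371 probe sets tested were called in either direction and 0.967% as lower in sto2.

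COR15A behaved otherwise. It read 363.8, 527.5 and 404.7 in sto2 and 296, 834.3 and 321.2 in wild type. The sto2 values lay inside the wild-type range, above replicates 1 and 3 and below replicate 2. The means were 432 ± 85.2 in sto2 and 484 ± 304 in wild type, with a log2 difference of -0.01 ± 0.38 (adjusted p = 0.991) and a 95% interval from -0.92 to 0.89. That interval includes a difference as large as that of COR15B. With 5 arrays, leaving out wild type replicate 2, the log2 difference of COR15A was 0.45 ± 0.16 with an adjusted p of 0.385. The direction of its mean difference thus rested on single arrays, and it was also positive without sto2 replicate 1 (0.097) or sto2 replicate 3 (0.023).

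The 2 neighbouring COR15 genes were compared directly by subtracting the log2 value of COR15A from that of COR15B on each array, a comparison added after their values had been seen. This log2 ratio was 0.79, -0.13 and 0.43 in sto2 replicates 1, 2 and 3, and 1.41, 0.12 and 1.32 in wild type. In each genotype replicate 2 had the lowest ratio. The mean ratio was 0.36 ± 0.46 in sto2 and 0.95 ± 0.72 in wild type, which put sto2 at -0.59 relative to wild type (p = 0.3 in a 2-sided exact permutation test, where 0.1 is the smallest that 3 against 3 arrays allow). The contrast between COR15B and COR15A was thus within the spread between arrays, and it ran from -1.003 to -0.342 with 1 array left out. The coding sequences of COR15A and COR15B are alike, and cross-hybridisation between their probe sets was not tested.

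**Figure D1:**
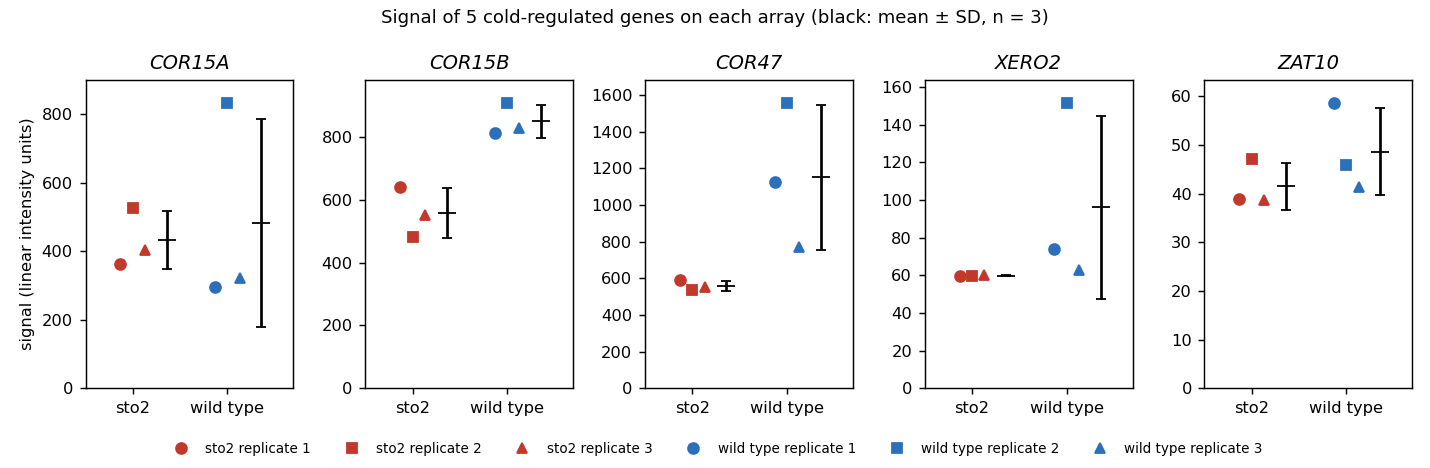
Signal in linear units on each of 6 arrays for 5 genes, with sto2 on the left and wild type on the right of each panel, 1 symbol per replicate number, and the mean ± SD in black (n = 3). For COR15B, COR47 and XERO2 the sto2 arrays all lie below the wild-type arrays, and wild type replicate 2 (square) is the highest wild-type array for every gene but ZAT10.

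Of the dehydrins, COR47 read 589.5, 533.8 and 554.5 in sto2, against 1128.3, 1559.8 and 769.1 in wild type. The sto2 arrays were tightly grouped, the wild-type arrays were widely spread, and the groups did not overlap. The means were 559 ± 28.2 in sto2 and 1152 ± 396 in wild type, so wild-type leaves held 2.06 times the signal of sto2 leaves. The log2 difference was -0.97 ± 0.23, with a 95% interval from -1.52 to -0.41 and an adjusted p of 0.163, at rank 663. Leaving out wild type replicate 2 gave -0.72 ± 0.17. Leaving out wild type replicate 3 gave -1.22 ± 0.15, with an adjusted p of 0.121. COR47 did not pass in any of 15 alternatives, with adjusted p from 0.0625 to 0.406.

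XERO2 was far dimmer, and read 59.8, 59.7 and 60 in sto2, against 73.9, 151.8 and 62.6 in wild type. The sto2 arrays were nearly identical and lay just under wild type replicate 3, while wild type replicate 2 stood well above all other arrays. The means were 59.8 ± 0.15 in sto2 and 96.1 ± 48.6 in wild type. The log2 difference was -0.48 ± 0.27 (adjusted p = 0.473, 95% interval -1.12 to 0.15). Without wild type replicate 2 it was -0.15 ± 0.090 (adjusted p = 0.583), so most of the XERO2 difference came from that array. Every reading of XERO2, like those of the other 4 genes, exceeded the highest bacterial control probe set of its own array, which lay between 9.5 and 18.4.

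ZAT10, the transcriptional repressor, read 38.8, 47 and 38.6 in sto2 and 58.7, 45.9 and 41.3 in wild type. The groups overlapped, since sto2 replicate 2 exceeded wild type replicates 2 and 3. The means were 41.5 ± 4.79 in sto2 and 48.6 ± 9.02 in wild type, with a log2 difference of -0.16 ± 0.12 (adjusted p = 0.599, 95% interval -0.45 to 0.12). Its highest wild-type array was replicate 1, and the difference was -0.055 ± 0.10 when that array was dropped. A decrease of 1 on the log2 scale lies outside the interval of ZAT10, but inside those of COR47 and XERO2.

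**Figure D2:**
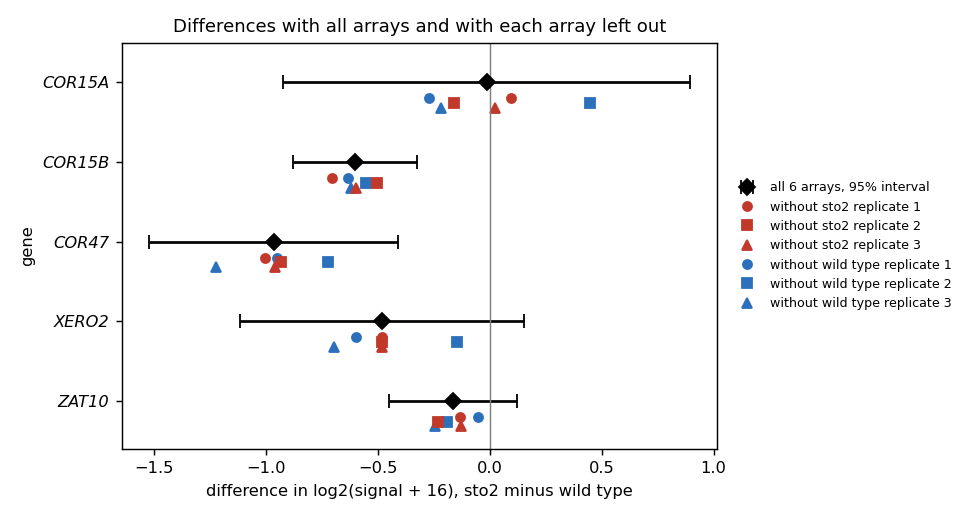
Difference in log2(signal + 16), sto2 minus wild type, for each gene, from all 6 arrays with its 95% interval (black) and with each array left out in turn (coloured symbols, 5 arrays each). COR15B and COR47 stay between -0.50 and -1.22 whichever array is left out, while COR15A runs from -0.27 to 0.45 and XERO2 from -0.70 to -0.15.

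The genes also differed in how much they varied among arrays of 1 genotype. In wild type the coefficient of variation was 62.8% for COR15A, 50.5% for XERO2, 34.4% for COR47, 18.5% for ZAT10 and 6.12% for COR15B. In sto2 it was 19.7% for COR15A, 0.26% for XERO2, 5.03% for COR47, 11.6% for ZAT10 and 14.5% for COR15B. For 4 of the 5 genes the SD was smaller in sto2, COR15B being the exception, beside 65.1% of the 10041 brighter probe sets. Among those probe sets the wild-type variation of COR15A, XERO2 and COR47 exceeded that of 99.8%, 99.4% and 97.2%. In sto2, XERO2 varied less than all but 0.0398% of them. The spread of 3 arrays is itself imprecise, and the difference in spread between genotypes was not tested.

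The wild-type spread had a shared direction. Replicate 2 was the highest wild-type array for COR15A, COR15B, COR47 and XERO2, which holds for 31.6% of the 10041 brighter probe sets. In wild type, COR47 and XERO2 had the same order of arrays, with replicate 1 in the middle and replicate 3 lowest. COR15A and COR15B shared another order, with replicate 3 in the middle and replicate 1 lowest. Among sto2 arrays, replicate 2 was the highest for COR15A and ZAT10, as for 37% of the brighter probe sets, and the lowest for COR15B, COR47 and XERO2, as for 35.5%, although for XERO2 the arrays differed by only a fraction of a signal unit.

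Over the 6 arrays, co-variation was measured for the 10 pairs of these genes as Pearson's r of log2(signal + 16), with exact permutation over all pairings and adjustment over the 10 pairs. A single pair passed, COR47 with XERO2 (r = 0.88, exact permutation p = 0.00417, adjusted p = 0.0417, 2-sided). Both genes had separate groups, and the permutation shuffled arrays across genotypes. Its p therefore does not separate co-variation within a genotype from the split between genotypes. Spearman's rho of COR47 with XERO2 was 0.94 (exact permutation p = 0.0167, adjusted p = 0.0833), which did not pass. After subtracting each genotype's mean, r of COR47 with XERO2 was 0.91, and that value came from the 3 wild-type arrays, mainly replicates 2 and 3, since XERO2 hardly varied among sto2 arrays. Without wild type replicates 1 and 2, the arrays farthest from the median of COR47, r was 0.97. The 4 arrays left for it hold 1 wild-type array beside 3 closely grouped sto2 arrays, so that r is set by 1 point and shows nothing about whether the relation holds without the 2 arrays.

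COR15B and COR47 had r = 0.87 and rho = 0.94 (exact permutation p = 0.0236 and 0.0167; adjusted p = 0.118 and 0.0833). Both genes had separate groups, and r of their deviations from the genotype means was 0.42. COR15B with XERO2 had r = 0.65 and rho = 0.89 (exact permutation p = 0.0819 and 0.0333, adjusted p = 0.273 and 0.111). For COR15A with XERO2, r was 0.76 but rho was -0.086 (exact permutation p = 0.165 and 0.919, adjusted p = 0.413 and 0.919). Over the 4 arrays other than replicate 2 of each genotype that r was -0.83, so the positive value rested on the replicate 2 arrays. Those 4 arrays are 2 of each genotype, with COR15A higher and XERO2 lower in sto2, so the negative value follows the split between genotypes. With genotype means subtracted and all 6 arrays kept, r was 0.92 for COR15A with XERO2 and 0.71 for COR15A with COR47, and wild type replicate 2 lay highest above its genotype's mean for each of these genes. COR15A with COR15B had r = 0.048 and rho = -0.086 (exact permutation p = 0.928 and 0.919, adjusted p = 0.928 and 0.919), although the genes are neighbours. None of the 4 pairs with ZAT10 had an exact permutation p below 0.268 (adjusted p = 0.536 or more), and their r lay between -0.070 and 0.55. All values rest on 6 arrays of 2 genotypes and share the scaling of each array.

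**Figure D3:**
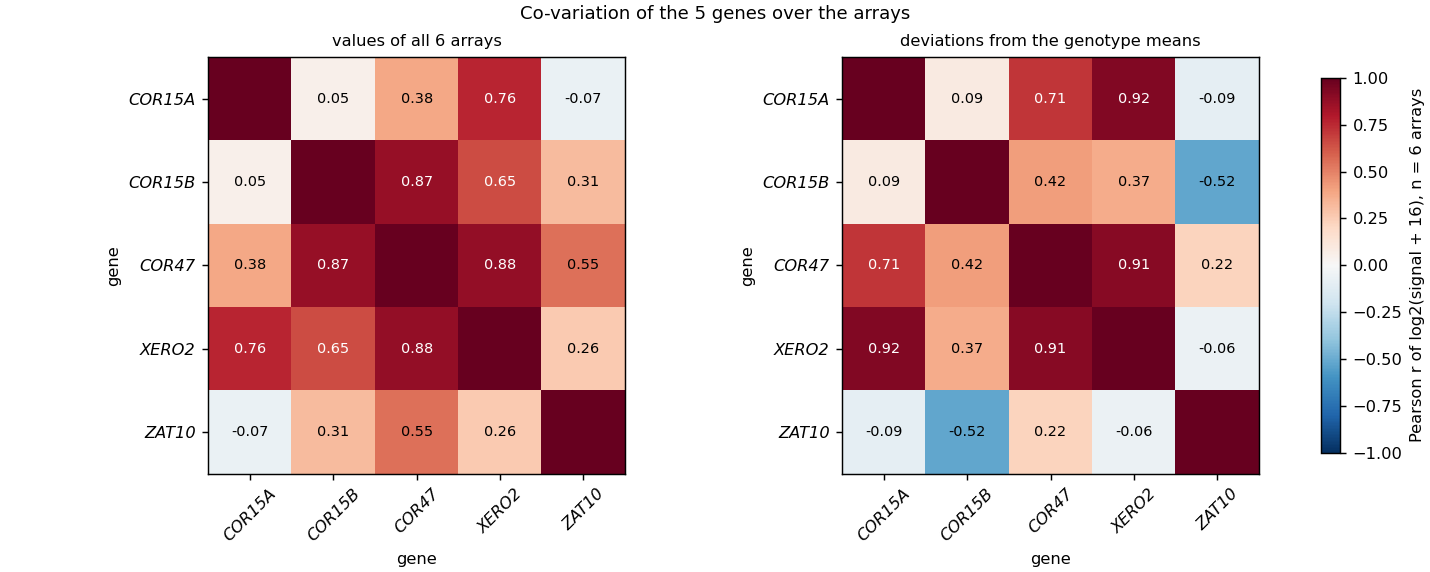
Pearson r between each pair of the 5 genes over 6 arrays, from the values themselves (left) and from deviations from the genotype means (right), on a colour scale from -1 to 1. COR47 with XERO2 has 0.88 on the left and 0.91 on the right, COR15A with XERO2 has 0.76 and 0.92, COR15A with COR47 has 0.38 and 0.71, COR15B with COR47 has 0.87 and 0.42, and ZAT10 has no value above 0.55 with any other gene.

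Transcripts with the most similar pattern were sought among 5243 other single-gene probe sets with a mean signal of at least 50, by Pearson's r over the 6 arrays as a description only. Closest to COR15B was AT5G35970 (r = 0.999), which read 500.4, 374.6 and 427.4 in sto2 and 620.7, 714.9 and 658.2 in wild type. Its log2 difference of -0.60 was the same as that of COR15B, and AT3G23605 (r = 0.994) and AT4G19830 (r = 0.992) came next with -0.39 and -0.55. The lower values of these transcripts in sto2 follow from their choice by likeness to COR15B. Closest to COR47 were AT3G14075 (r = 0.993), AT1G10090 and AT3G07930 (both r = 0.99), and closest to XERO2 were AT5G13400, AT5G28630 and AT3G03070 (r from 0.983 to 0.992). AT5G28630 read 45.6, 43.3 and 41.2 in sto2 and 51.4, 87.4 and 49 in wild type. Its wild type replicate 2 lay far above the rest, which follows from its choice by likeness to XERO2.

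For COR15A the closest was AT5G64120, the peroxidase gene PRX71 (r = 0.994), at 58.3, 74.2 and 60.3 in sto2 and 45.8, 103.7 and 53.5 in wild type. AT2G20820 and ccb382 followed with r of 0.981 and 0.979. ZAT10 was closest to AT3G21650, AT5G06560 and AT1G22270 (r from 0.986 to 0.992). The mean pattern of the 5 genes was closest to those of AT3G07930 (r = 0.994), BUG22 (0.989), AT2G23120 (0.985), the plastid gene ccsA (0.985) and AT4G16770 (0.981). High r is frequent with 6 arrays. At least 0.9 was reached with COR15B by 178 of the 5243 probe sets, with COR47 by 103, with ZAT10 by 89, with XERO2 by 68 and with COR15A by 20.

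The neighbouring genes on the chromosomes were read as well, taking 3 coding genes on each side of each locus in RefSeq order. Outside the 5 genes, 9 neighbours had a named probe set. Of these 9, 0 were called by limma and 2 had an unadjusted p under 0.05, beside 0.127% and 14.1% of all probe sets. AT1G20430, beside COR47, read 102.8, 121.5 and 118.5 in sto2 and 93.9, 82.3 and 87.8 in wild type, so its sto2 arrays were the higher ones (log2 difference 0.32 ± 0.089, adjusted p = 0.198). AT1G27700, near ZAT10, had a difference of -0.21 ± 0.080 (adjusted p = 0.321). ERD10 and XERO1, dehydrin genes next to COR47 and XERO2, have no named probe set here and were not analysed.

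Few other genes of the cold response could be read, because the gene table leaves 8730 probe sets unlisted. Of the regulators of the CBF pathway only SIZ1, a SUMO ligase gene, was named. Its brighter probe set read 150 ± 10.5 in sto2 and 156 ± 8.29 in wild type (adjusted p = 0.852). Among 45 other loci of cold- and dehydration-induced effectors, 5 were named and 0 were called in either direction by limma, beside 0.127% of all probe sets. An unadjusted p under 0.05 was found for 1 of these 5 effectors, beside 14.1% of all probe sets. That gene was HVA22C, of a family first known as abscisic acid-induced in barley, at 133.4, 164.9 and 139.2 in sto2 and 123, 92.1 and 117 in wild type. Every sto2 array of HVA22C read above every wild-type array (log2 difference 0.36 ± 0.13, adjusted p = 0.285). COR27, a cold-regulated gene tied to the circadian clock, read 317.8, 402 and 400.9 in sto2 and 372.3, 222.2 and 291 in wild type, and wild type replicate 2 was its lowest array (0.34 ± 0.19, adjusted p = 0.467).

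A search of RefSeq names for cold, dehydrin, LEA and drought-induced genes, made after the values were known, brought the other genes of this kind to 12. The search leaves out any gene whose RefSeq names hold none of these words, so the set may be incomplete. Of these 12, 0 were called by limma and 3 had an unadjusted p under 0.05, beside 0.127% and 14.1% of all probe sets. Of the 7 that exceeded the bacterial controls on every array, 3 had a lower and 4 a higher mean in sto2, and their median log2 difference was 0.070. The dehydrin gene HIRD11 (AT1G54410) read 2797, 2362.1 and 2803.9 in sto2 and 2570, 2783.4 and 2735.2 in wild type, with overlapping groups (-0.03 ± 0.094, adjusted p = 0.946). SRC2, whose soybean counterpart is known as cold-regulated, read 379.2, 357.7 and 315.1 in sto2 and 449.2, 526.5 and 370.9 in wild type (-0.33 ± 0.14, adjusted p = 0.352), with wild type replicate 2 highest as for COR47. DI21, a drought-induced gene, read 23.1, 34.8 and 30.5 in sto2 and 17.1, 18.4 and 12.4 in wild type, and did not exceed the bacterial controls on every array (0.50 ± 0.12, adjusted p = 0.170). The LEA genes LEA4-5, AtLEA4-1 and LEA18, which belong mainly to seeds and dehydrated tissue, averaged 1.30, 6.53 and 0.23 in sto2 and 2.37, 4.87 and 0.70 in wild type, at background.

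**Figure D4:**
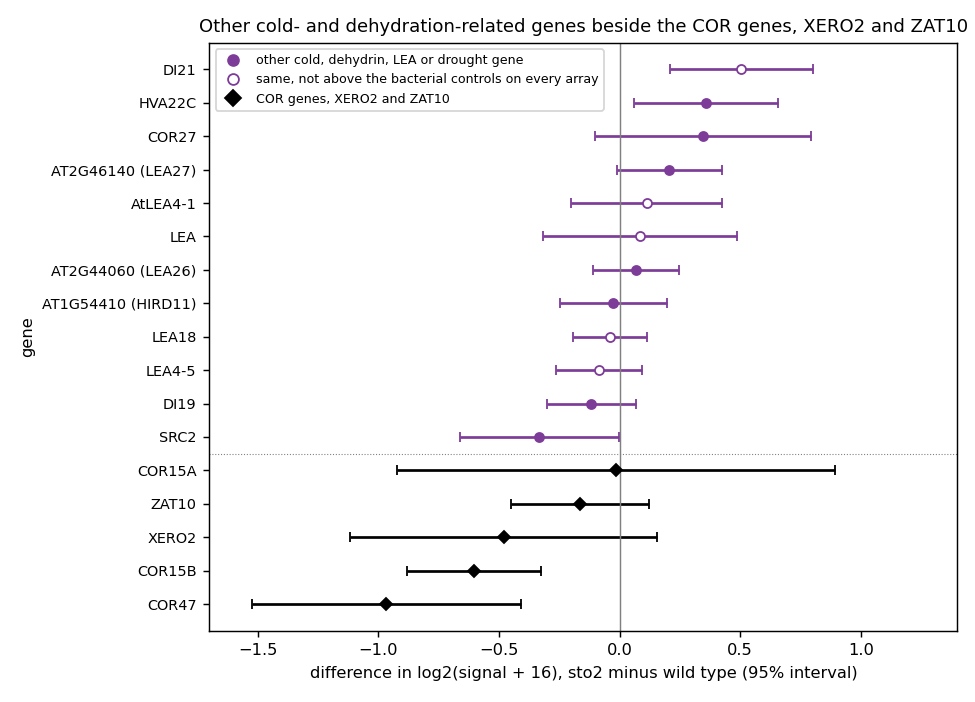
Difference in log2(signal + 16), sto2 minus wild type, with its 95% interval for 12 other cold- and dehydration-related genes (circles, open where the gene did not exceed the bacterial controls on every array) and for the 5 genes described here (diamonds). The circles lie on both sides of 0, from -0.33 for SRC2 to 0.50 for DI21, and the 5 diamonds lie between -0.97 and -0.01.

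Rapidly stress-induced regulators, the class ZAT10 belongs to, were represented by 4 of 47 loci. Of these 4, 0 were called by limma and 0 had an unadjusted p under 0.05, beside 0.127% and 14.1% of all probe sets. WRKY22, a defence-related transcription factor gene, read 20.4, 26.8 and 26.5 in sto2 and 58, 27.7 and 33.2 in wild type, with wild type replicate 1 highest as for ZAT10 (-0.42 ± 0.20, adjusted p = 0.398). WRKY53 read 29.5, 37.8 and 29.4 in sto2 and 29.7, 52.4 and 37.1 in wild type, a difference of -0.19 ± 0.16. Its wild type replicate 1 was the lowest wild-type array, unlike that of WRKY22 and ZAT10. The calmodulin-like gene CML38, with the smallest p of the 4, had a difference of -0.32 ± 0.14 (limma adjusted p = 0.374). It read near the bacterial controls, above them on 1 sto2 and 2 wild-type arrays. CML37, also calmodulin-like, exceeded them on 0 arrays. The 22 other ZAT and AZF zinc finger names searched matched only 8 loci, and 0 of these had a named probe set. From the clock, whose phase sets the daily level of CBF and COR transcripts, only GI was named. GI read 322.3, 274.7 and 278.4 in sto2 and 291.2, 356.3 and 351.3 in wild type (-0.18 ± 0.11, adjusted p = 0.515). The hour of harvest is not given in the labels, and its part in the COR values was not tested. Among sugar and starch genes 3 of 16 were named and 0 called by limma, beside 0.127% of all probe sets. DPE1, a starch breakdown gene, read 307 ± 3.22 in sto2 and 273 ± 6.30 in wild type (0.16 ± 0.066, adjusted p = 0.353). The differences of APL3 (0.18 ± 0.11) and ATSPS4F (0.38 ± 0.36) were larger but had larger p-values.

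The tissue label was checked with marker genes. The 6 named photosynthesis markers summed to between 23970 and 24950 in sto2 and between 23860 and 25740 in wild type. The 2 named root markers, PYK10 and EXPA7, and the 2 of the shoot apex, CLV3 and UFO, did not exceed the bacterial controls on every array and summed to at most 22.3 and 8.2 in sto2 and 30.0 and 7.3 in wild type. The senescence markers SAG29 and WRKY6 summed to between 18 and 34 in sto2 and 22.1 and 38.6 in wild type, and the phloem marker SWEET11 read 995.1 to 1212 in sto2 and 701.5 to 1087 in wild type. In the trichome list, 2 genes summed to 64.2 to 93.3 in sto2 and 84.1 to 101.7 in wild type, and the 3 stomatal genes to 72.7 to 84 in sto2 and 59.4 to 89.8 in wild type. No seed, flower or xylem marker was named. Of 6 ratios of 3′ to 5′ signal in control transcripts, the older actin pair differed most, at a log2 ratio of 2.05 ± 0.25 in sto2 and 2.57 ± 0.058 in wild type (exact permutation p = 0.1, adjusted p = 0.6, 2-sided). Every sto2 array had a lower actin ratio than every wild-type array. Since 0.1 is the smallest p that 3 against 3 arrays allow, this test could not pass. The part of these measures in the differences above was not tested. Array medians lay between 37 and 38.55 signal units, mean correlations of each array with the others lay between 0.967 and 0.977, and the number of arrays limits every value.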

How the data were processed

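The deposited values were linear signal intensities per probe set, from 0 to 6616. Per the labels' protocols, total RNA was extracted with a column kit and biotin-labelled, and a service provider hybridised the Affymetrix arrays. For the summary of probes into probe sets, a method was not given in the sources used here. The authors' values had the same 2% trimmed mean of 100.009 on every array. Array medians spanned 0.057 on the log2 scale, within the limit of 0.1 set for using the values as given, so no further normalization was applied.

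After removal of 64 control probe sets from 22810, the log2(signal + 16) of the other 22746 went into limma 3.58.1 under R 4.3.3, by lmFit and eBayes with 2-sided p-values and Benjamini-Hochberg adjustment. The procedure was tested on simulated data. Names came from the platform's gene table, in which 13513 probe sets have 1 gene, 503 several and 8730 none; 13508 matched a RefSeq gene of assembly TAIR10.1. No coordinates are printed, because the labels name no genome build for the array. Promoter and protein sequences were not used here. The background level was taken from 27 bacterial control probe sets, after the data were seen. Members and lists were chosen with earlier results of these data known. The genes named were the 5 members, in each list those called and the 3 with the smallest p, the 3 transcripts most alike in pattern to each member and the 5 most alike to their mean; others named were chosen after their values were seen.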

Additional observations from a re-analysis of the deposited data

How the results depend on the processing

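COR15B, COR47, XERO2 and ZAT10 kept a lower value in sto2 under all 15 alternatives, and their differences ran from -0.71 to -0.50, -1.22 to -0.72, -0.70 to -0.15 and -0.25 to -0.055, each range set by leaving out 1 array. COR15A turned to 0.45, 0.097 and 0.023 without wild type replicate 2, sto2 replicate 1 and sto2 replicate 3, and its lowest value among these fits was -0.27. With the dimmest 50% of probe sets left out, fewer probe sets were tested, 1 of the 5 genes was called (COR15B, log2 difference -0.60, adjusted p = 0.0439) and 227 probe sets in all. The other alternatives called 0 of the 5, against 29 probe sets over the array with all arrays and settings as in the report. That number was 72 with an intensity trend and robust prior, 70 with array weights, 6 with single-gene probe sets, 17 and 83 with pseudocounts of 1 and 64, and 5 to 22 with 1 array left out; causes were not tested. Median centring called 22 higher and 19 lower, against 13 higher and 16 lower without it. The median of the 5 genes ran from -0.62 to -0.19 over the 6 fits without 1 array. The replicate number as a block left 2 calls over the array and 0 among the 5 genes. With it the SE of COR15A was 0.22, against 0.38 without it. Same-numbered deviations from the genotype means correlated at -0.443, -0.285 and 0.119 over 10038 probe sets, and those with other numbers at -0.372 to 0.479. The deviations of a genotype sum to 0, which ties these correlations to each other. Whether same-numbered arrays shared a batch was not tested. By rank correlation 0 pairs passed, 3 had an exact unadjusted p under 0.05, and COR15A with COR15B, COR47 and XERO2 turned to -0.086, -0.143 and -0.086. Over deviations from the genotype means, COR15B with ZAT10 was -0.52 and XERO2 with ZAT10 was -0.062. Without the 2 arrays farthest for the first gene of a pair, COR15A with COR15B, COR47 and XERO2 was -0.961, -0.94 and -0.831, COR47 with ZAT10 was -0.197 and XERO2 with ZAT10 was -0.075. For COR15A these arrays were replicate 2 of each genotype, and for COR47 and XERO2 wild type replicates 1 and 2. The COR15A values thus come from 2 arrays of each genotype, follow the split between genotypes and show no relation within a genotype.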
